A study of Mus musculus with 40 samples.

Results

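The 8 genes described here, Sox9, Sox4, Pax2, Pax8, Lhx1, Emx1, Tfap2b and Cited2, encode transcription factors and a co-regulator of nephron development. They were taken by symbol from a fixed list, and a name was kept only if its Control counts were equal in the time course table and the therapy table. All 8 were found, each on 1 line, among 55862 names in the time course table, 55866 in the therapy table and 55866 in the sham table. RNA of whole kidney from C57bl/6-wt mice was sequenced in 4 libraries per group. In the time course, kidneys without treatment (Control) were set beside kidneys taken 6, 24, 48 and 72 h after reperfusion in ischaemia-reperfusion injury (IRI), where the renal blood flow is stopped and then released. In the therapy table, kidneys with IRI and human mesenchymal stromal cells (MSCs) from umbilical cord (UC-MSC) or bone marrow (BM-MSC) were set beside injured kidneys labelled AKI and the same 4 Control libraries. The cells were injected right after reperfusion, the AKI kidneys were taken 6 h after it, and the labels give no time for the UC-MSC and BM-MSC kidneys. In the sham table, kidneys taken 24 h after surgery without IRI (sham 24 h, although their treatment tag reads IRI) were set beside kidneys without surgery (sham control). The study asked how MSCs from these sources act on IRI and in which time window. The labels do not say that the 4 libraries of a group came from separate animals, so the p-values below reflect the spread among these libraries alone, and that spread may be technical. Whole kidney mixes many cell types, so fewer cells of a type and less RNA per cell cannot be told apart.

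The nephron forms from mesenchymal progenitors that condense around the branching ureteric bud, turn epithelial and are then patterned into glomerulus, proximal tubule, loop of Henle and distal tubule. PAX2 and PAX8 are paired box factors that set up this lineage, and LHX1, a LIM homeodomain factor, is needed for the early nephron vesicle and its patterning. SOX4 and SOX9 are HMG box factors of progenitors and early epithelium, and SOX9 is also known as a factor that adult tubule cells switch on when they repair injury. AP-2 beta, encoded by Tfap2b, is needed for distal tubule differentiation, and EMX1 is a homeodomain factor best known from the developing cerebral cortex. CITED2 binds no DNA itself. It binds the co-activators CBP and p300, competes there with the hypoxia-inducible factor HIF-1α and co-activates AP-2 factors.

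The promoters of 4 members are shown because they stand for the patterns described below, a rise after injury (Sox4) and falls after injury (Lhx1, Emx1 and Cited2). Each is the 250 bases before the gene's start in RefSeq on build GRCm38.p6, 5′ to 3′ on the strand of the gene, and capitals mark a match to CCAAT or to ACGTG on either strand. The Sox4 window is chr13:28953700-28953949 on the minus strand, that of Lhx1 is chr11:84525535-84525784 on the minus strand, that of Emx1 is chr6:85187681-85187930 on the plus strand, and that of Cited2 is chr10:17722978-17723227 on the plus strand.
Sox4: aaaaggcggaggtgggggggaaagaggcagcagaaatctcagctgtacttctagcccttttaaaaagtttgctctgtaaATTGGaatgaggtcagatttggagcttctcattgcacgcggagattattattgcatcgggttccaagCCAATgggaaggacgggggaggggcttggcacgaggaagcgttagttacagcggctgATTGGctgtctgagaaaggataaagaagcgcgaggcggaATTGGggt
Lhx1: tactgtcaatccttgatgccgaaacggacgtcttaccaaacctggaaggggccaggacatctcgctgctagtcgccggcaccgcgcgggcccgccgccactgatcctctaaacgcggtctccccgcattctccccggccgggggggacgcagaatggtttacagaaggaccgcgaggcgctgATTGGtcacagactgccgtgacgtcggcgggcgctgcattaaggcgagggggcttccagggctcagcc
Emx1: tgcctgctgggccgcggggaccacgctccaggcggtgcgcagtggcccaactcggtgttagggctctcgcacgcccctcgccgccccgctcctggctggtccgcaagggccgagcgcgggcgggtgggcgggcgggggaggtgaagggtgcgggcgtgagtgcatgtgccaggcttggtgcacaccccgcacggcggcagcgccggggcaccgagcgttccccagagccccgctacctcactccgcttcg
Cited2: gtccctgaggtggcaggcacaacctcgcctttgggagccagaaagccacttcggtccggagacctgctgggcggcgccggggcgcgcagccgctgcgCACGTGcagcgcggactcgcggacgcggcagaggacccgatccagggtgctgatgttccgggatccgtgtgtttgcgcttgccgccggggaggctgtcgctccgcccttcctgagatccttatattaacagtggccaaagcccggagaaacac
CCAAT, the box bound by factors such as NF-Y, stood 4 times in the Sox4 window and 1 time in that of Lhx1, and 33.8% of 32851 mouse promoters of this length held it. ACGTG, the core of the site bound by hypoxia-inducible factors, was matched on both strands by the same 6 letters in the Cited2 window, starting 153 and 152 bases before the start, and 16.6% of promoters held it. No match to CCAAT or ACGTG stood in the Emx1 window, which was 75.6% G and C, against a median of 52.4% over all promoters. GCCNNNGGC, the letters of an AP-2 site, and AACAAT, those of a SOX site, were held by 13.7% and 9.42% of promoters and matched none of these 4 windows. RefSeq gave a promoter for 7 of the 8 members. A match describes the letters in these windows and says nothing of binding.

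Total counts per library were 15005827 to 16429910 for Control and 13342831 to 17589826 at 6 h, and smaller later, with 6748302 to 13617182 (24 h), 5462255 to 7073559 (48 h) and 4656775 to 5383784 (72 h). The UC-MSC, BM-MSC and AKI libraries held 13007459 to 18538072 counts and the sham libraries 26601247 to 37097091. Over repeated lines of the same name, Control and 6 h columns varied together in 300 of 300 column pairs, and Control and 24 h columns varied apart in 313 of 313, which shows that the 24, 48 and 72 h columns had been joined to the others as a separate set. AKI columns likewise varied apart from Control columns in 283 of 283 pairs, while UC-MSC, BM-MSC and Control columns varied together. Where groups lie in different sets, the group and the making of its set cannot be told apart. This touches every comparison of 24, 48 or 72 h with Control or 6 h and every comparison with AKI. No such split was seen between 6 h and Control, among the later times, or among UC-MSC, BM-MSC and Control. The joins do not show when or how the libraries were made, so batches within a set are not known.

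After IRI, Sox9 and Sox4 rose at every time tested, while Cited2 fell at every time and Lhx1 and Emx1 fell at the later ones. Pax8 rose at 24 and 48 h and was back near its Control level at 72 h, and neither Pax2 nor Tfap2b passed the test against Control at any time. Of the 8 members, 3 were called at 6 h (2 rose and 1 fell), 5 at 24 h (3 rose and 2 fell), 6 at 48 h (3 rose and 3 fell) and 5 at 72 h (2 rose and 3 fell). Over all 16659 genes tested, 18.8% were called at 6 h, 42% at 24 h, 53.7% at 48 h and 56.3% at 72 h. By direction, 10.3% were called higher and 8.52% lower at 6 h, 21.8% higher and 20.2% lower at 24 h, 26.9% higher and 26.8% lower at 48 h, and 26.7% higher and 29.6% lower at 72 h. A gene is called here at an adjusted p under 0.05 by edgeR's two-sided quasi-likelihood test with Benjamini-Hochberg adjustment over all genes, which gave every adjusted p below. The members' median log2 fold change was -0.45, 0.04, -0.08 and -0.24 at 6, 24, 48 and 72 h, beside -0.07, 0.05, 0.01 and -0.05 over all genes. These 4 comparisons share the Control libraries.

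**Figure D1:**
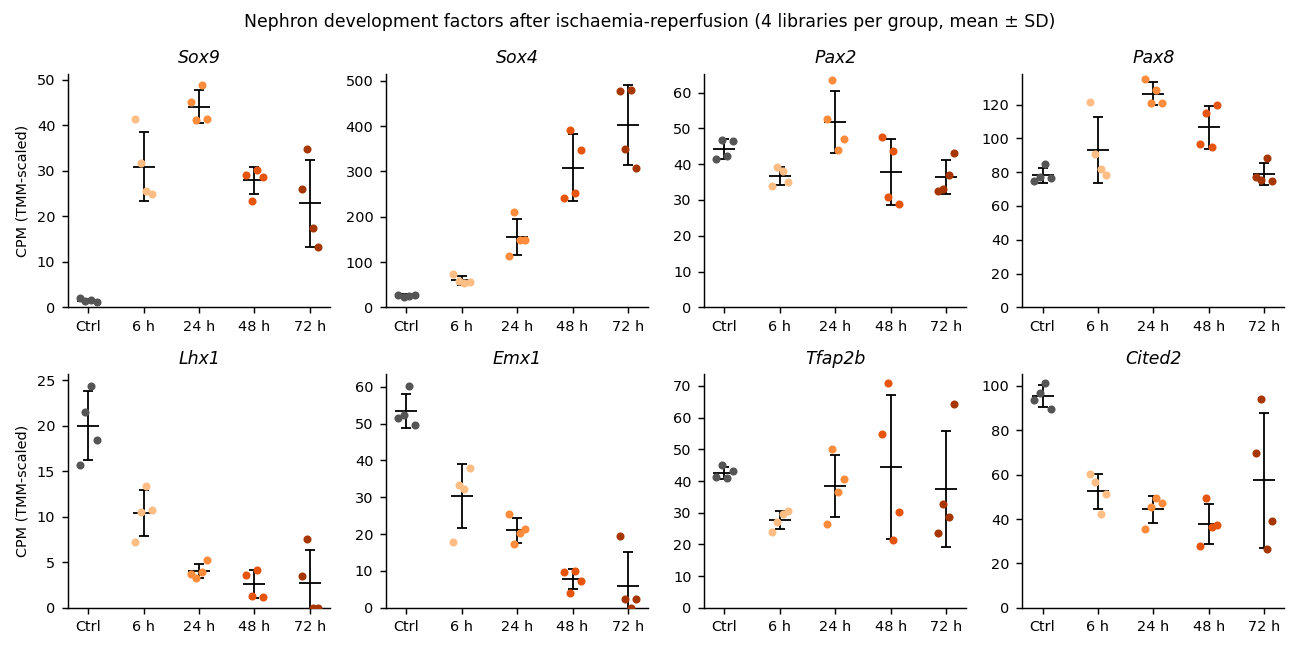
CPM (TMM-scaled) of the 8 genes in each library of the time course, with Control (Ctrl) and 6, 24, 48 and 72 h after reperfusion along the x axis. Points are libraries and the bars give mean ± SD of 4 libraries. Sox4 climbed from group to group to a mean of 403 at 72 h, Sox9 was highest at 24 h with a mean of 44.1, and Lhx1 and Emx1 lay below all Control libraries in every injured library.

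Sox9 had 1.96, 1.33, 1.51 and 1.11 CPM (the usual scaling of a count by library size, here with TMM-scaled sizes) in Control and 41.3, 31.7, 25.5 and 25.0 CPM at 6 h. It had 45.2, 41.1, 48.8 and 41.3 CPM at 24 h, 29.1, 23.4, 30.3 and 28.7 CPM at 48 h, and 25.9, 34.7, 17.3 and 13.3 CPM at 72 h. No injured library overlapped a Control library, and all 24 h libraries lay above all 48 and 72 h libraries. Against Control, the log2 fold change was 4.37 ± 0.30 at 6 h (± SE, adjusted p = 1.2e-09), 4.88 ± 0.30 at 24 h (adjusted p = 4e-11), 4.22 ± 0.30 at 48 h and 3.93 ± 0.30 at 72 h. Between neighbouring times the test found no change of Sox9 (0.52 ± 0.25 for 24 h against 6 h, adjusted p = 0.13, and -0.66 ± 0.25 for 48 h against 24 h, adjusted p = 0.063). When only the 2 groups compared were fitted, both of these steps passed it (0.52, adjusted p = 0.020, and -0.62, adjusted p = 0.020).

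Sox4 kept climbing where Sox9 did not. It had 28.1, 22.2, 25.0 and 27.6 CPM in Control and 73.9, 57.6, 52.8 and 55.0 CPM at 6 h. The values were 114, 210, 149 and 148 CPM at 24 h, 241, 392, 253 and 348 CPM at 48 h, and 476, 350, 480 and 307 CPM at 72 h. Neighbouring groups did not overlap up to 48 h, and the 48 and 72 h libraries overlapped. The log2 fold change against Control was 1.22 ± 0.20 at 6 h (adjusted p = 0.0001), 2.59 ± 0.21 at 24 h, 3.58 ± 0.21 at 48 h and 3.97 ± 0.22 at 72 h (adjusted p = 1.6e-12). From time to time, Sox4 rose by 1.38 ± 0.20 at 24 h against 6 h (adjusted p = 1.4e-05) and by 0.99 ± 0.19 at 48 h against 24 h (adjusted p = 0.00084). The step of 0.39 ± 0.19 at 72 h against 48 h did not pass (adjusted p = 0.26).

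The paired box genes moved less. Pax8 had 74.5, 77.2, 84.6 and 76.6 CPM in Control, 121, 90.8, 82.1 and 78.0 CPM at 6 h and 135, 121, 128 and 121 CPM at 24 h. It had 96.9, 115, 94.7 and 120 CPM at 48 h and 77.0, 75.3, 88.6 and 74.9 CPM at 72 h. Every library at 24 and 48 h lay above Control, and those at 6 and 72 h overlapped it. Pax8 rose by 0.69 ± 0.14 at 24 h (adjusted p = 0.00027) and by 0.45 ± 0.14 at 48 h (adjusted p = 0.0091, or 0.12 with no filter on low counts), with values of 0.25 ± 0.14 at 6 h (adjusted p = 0.24) and 0.01 ± 0.14 at 72 h (adjusted p = 0.94). Gm13415, a gene on the opposite strand, overlaps Pax8 in GENCODE M21 but held at most 19 counts in any library of the time course. Pax2 had 41.4, 46.9, 42.3 and 46.6 CPM in Control, 34.0, 39.3, 38.1 and 35.0 CPM at 6 h and 52.7, 63.4, 43.9 and 47.1 CPM at 24 h. At 48 h it had 47.6, 30.9, 43.8 and 29.0 CPM, and at 72 h 32.6, 33.0, 37.0 and 43.0 CPM. The 6 h libraries lay below those of Control and of 24 h, and the other groups overlapped Control. Against Control the log2 fold changes of Pax2 ran from -0.28 to 0.22, with adjusted p of 0.18 or more.

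Of the 3 genes called in 24 h against 6 h (28.8% of all genes), Sox4 and both paired box genes rose, Pax2 by 0.50 ± 0.17 (adjusted p = 0.034) and Pax8 by 0.44 ± 0.14 (adjusted p = 0.018). With only those groups in the fit, Lhx1 (-1.36, adjusted p = 0.0010) and Tfap2b (0.47, adjusted p = 0.045) passed too. The Pax2 call was lost without any 1 of the 4 libraries at 6 h or without library 1 or 2 at 24 h, with adjusted p between 0.058 and 0.18. The Pax8 call was lost without 6 h library 2, 3 or 4 or 24 h library 1 (0.054 to 0.16), and both were lost with no filter on low counts (0.22 for Pax2 and 0.17 for Pax8). Sox4 was the 1 member called in 48 h against 24 h (21.1% of all genes). Pax2 (-0.45 ± 0.18, adjusted p = 0.072) passed without 48 h library 1 (-0.59, adjusted p = 0.023) or 3 (-0.54, adjusted p = 0.047), and Emx1 (-1.43 ± 0.59, adjusted p = 0.088) with only those groups in the fit (-1.39, adjusted p = 0.0099) or with no filter on low counts (-1.48, adjusted p = 0.022). None was called in 72 h against 48 h, where edgeR called 5.65% of all genes. There, 2 members had an unadjusted p under 0.05, Pax8 and Cited2, and DESeq2 called 1, Pax8 (-0.40, adjusted p = 0.036). Both passed without 72 h library 3 (-0.49 for Pax8, adjusted p = 0.043, and 0.84 for Cited2, adjusted p = 0.031), and Emx1 passed without 72 h library 1 (-2.38, adjusted p = 0.010).

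Lhx1 fell over the first day and stayed low. It had 15.6, 21.5, 24.4 and 18.5 CPM in Control and 7.16, 10.5, 13.4 and 10.7 CPM at 6 h. The values were 3.69, 3.31, 3.94 and 5.20 CPM at 24 h, 3.58, 1.28, 4.19 and 1.21 CPM at 48 h and 3.48, 7.55, 0 and 0 CPM at 72 h. No injured library reached the lowest Control library, and 2 libraries at 72 h held no Lhx1 read, which at their depth allows up to 0.597 and 0.702 CPM (3 counts, counting error only). The log2 fold change was -0.94 ± 0.68 at 6 h (adjusted p = 0.41), -2.30 ± 0.72 at 24 h (adjusted p = 0.012), -2.94 ± 0.75 at 48 h (adjusted p = 0.0021) and -2.84 ± 0.75 at 72 h (adjusted p = 0.0028). With Control and 6 h libraries alone in the fit, the 6 h value was -0.84 ± 0.20 (adjusted p = 0.0068).

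Emx1 had 51.5, 52.2, 60.2 and 49.7 CPM in Control and 18.0, 33.4, 32.3 and 37.9 CPM at 6 h. It had 25.5, 17.3, 20.2 and 21.3 CPM at 24 h, 9.80, 4.03, 9.96 and 7.25 CPM at 48 h and 19.6, 2.24, 0 and 2.34 CPM at 72 h. All injured libraries lay below Control, the 48 h libraries lay below those at 24 h, and library 1 stood above the other 3 at 72 h. Emx1 fell by 2.77 ± 0.60 at 48 h (adjusted p = 0.00048) and by 3.15 ± 0.63 at 72 h (adjusted p = 0.00018). Without 72 h library 1, the 72 h value was -5.19 ± 0.51. The values at 6 h (-0.81 ± 0.55, adjusted p = 0.37) and at 24 h (-1.34 ± 0.56, adjusted p = 0.059) were not called. With no filter on low counts the 24 h value passed (-1.39, adjusted p = 0.012). Both passed when only the groups compared were fitted, with -0.72 ± 0.19 at 6 h (adjusted p = 0.014) and -1.33 ± 0.11 at 24 h (adjusted p = 1.2e-07).

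Tfap2b had 41.3, 44.9, 40.9 and 43.2 CPM in Control and 23.9, 27.0, 29.5 and 30.4 CPM at 6 h. It had 26.4, 50.1, 36.4 and 40.6 CPM at 24 h, 54.9, 71.0, 21.5 and 30.4 CPM at 48 h and 23.7, 32.8, 28.7 and 64.3 CPM at 72 h. The 6 h libraries lay below all Control libraries, and from 24 h on the libraries spread to both sides of Control. The 6 h value was -0.62 ± 0.31 (adjusted p = 0.18), or -0.53 ± 0.10 (adjusted p = 0.0019) with only Control and 6 h in the fit, and later values ran from -0.19 to 0.06. At 6 h, 7 of the 8 members, all but Pax8, did not overlap Control, against 47.2% of all genes. At 24 h 6 did not (65.5% of all genes), at 48 h 6 (52.6%) and at 72 h 4 (51.9%).

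Cited2 had 93.5, 96.9, 101 and 89.8 CPM in Control and 60.2, 56.8, 42.2 and 51.2 CPM at 6 h. It had 35.4, 45.5, 49.3 and 47.1 CPM at 24 h, 27.8, 49.4, 36.6 and 37.5 CPM at 48 h and 69.8, 94.2, 26.3 and 39.1 CPM at 72 h. The injured libraries lay below Control up to 48 h, and at 72 h library 2 lay within Control's range. Cited2 fell by 0.86 ± 0.26 at 6 h (adjusted p = 0.022), by 1.10 ± 0.26 at 24 h (adjusted p = 0.0016) and by 1.34 ± 0.27 at 48 h (adjusted p = 0.0002). The 6 h call was lost without Control library 2 or 3 or 6 h library 3, with adjusted p of 0.05008, 0.057 and 0.074. At 72 h the fall was 0.73 ± 0.26 (adjusted p = 0.021), or 1.12 without 72 h library 2. That call was lost without 72 h library 3 or 4 (adjusted p = 0.056 and 0.069), with DESeq2 (0.057), with DESeq2's size factors (0.055) and with only Control and 72 h in the fit (0.12).

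**Figure D2:**
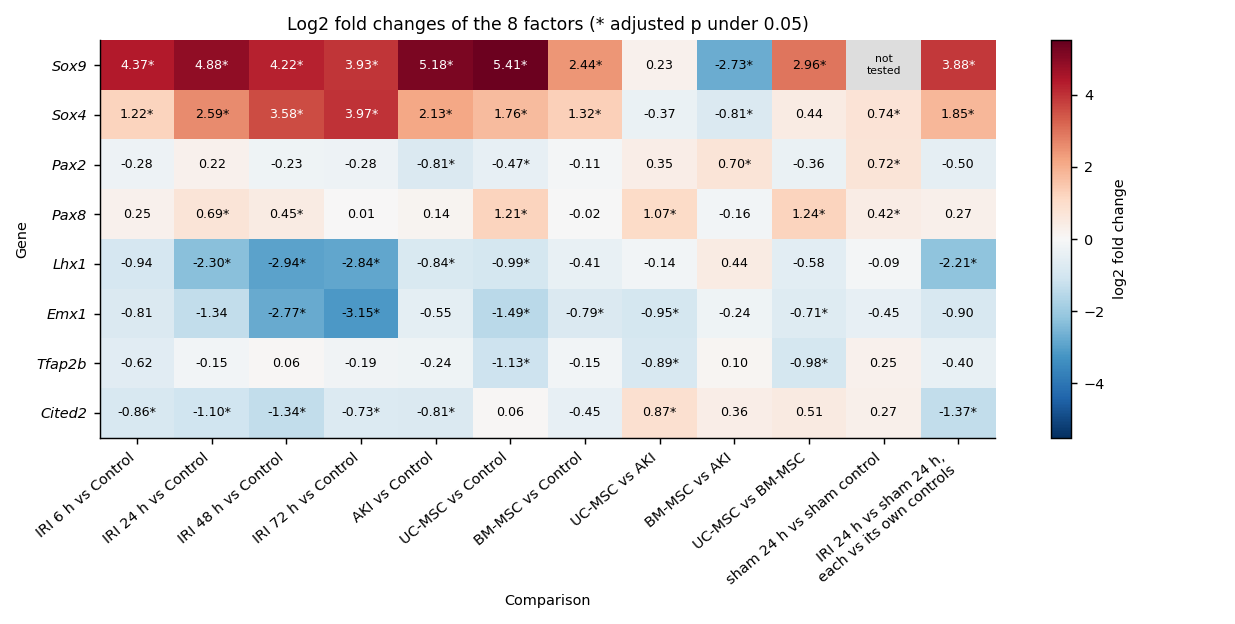
Log2 fold changes of the 8 genes (rows) in 12 comparisons (columns), with the group named first on top, red for higher and blue for lower. A star marks an adjusted p under 0.05, and Sox9 was not tested in the sham table. Sox9 and Sox4 were red in every tested comparison of an injured group with Control, with values up to 5.41 for Sox9.

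Relatives of the members were few and did not move as a block. Of the 8 tested members of a list of 12 other SOX genes, 1 rose and 1 fell at 6 h, and 2 rose and 1 fell at 24, 48 and 72 h. Sox11, of the same SoxC group as Sox4, had 0.408 ± 0.131 CPM in Control (SD, n = 4) and rose by 2.99 ± 0.60 at 6 h, 1.94 ± 0.59 at 24 h, 3.72 ± 0.61 at 48 h and 4.48 ± 0.63 at 72 h. Its Control level was near the detection limit, so the size of these rises is uncertain. Sox17, known as an endothelial and endodermal factor, averaged 7.91 ± 1.11 CPM in Control, 61.1 ± 7.04 CPM at 24 h, 103 ± 35.1 CPM at 48 h and 142 ± 41.4 CPM at 72 h (4.16 ± 0.25 at 72 h), with -0.10 ± 0.23 at 6 h (adjusted p = 0.84). The summed level of 8 endothelial markers was 609 to 650.1 CPM in Control, 302 to 496 CPM at 24 h and 537 to 841 CPM at 72 h, and 1 of 8 tested rose at each of 24, 48 and 72 h. Sox6, a SoxD factor, fell by 0.76 ± 0.21 at 6 h and by 1.49 ± 0.22 at 72 h.

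Among 17 relatives of the other members, 7 were tested. None rose or fell at 6 h, 1 rose at 24 h, 2 rose and 1 fell at 48 h, and 3 rose and 1 fell at 72 h. Tfap2a, the AP-2 alpha gene, rose by 2.67 ± 0.32 at 24 h, 2.89 ± 0.33 at 48 h and 2.77 ± 0.33 at 72 h (adjusted p = 1.8e-07), while its relative Tfap2b was not called. Emx2, which is needed for the ureteric bud, averaged 31.9 ± 4.13 CPM in Control and 32.9 ± 2.55 CPM at 24 h (0.04 ± 0.19, adjusted p = 0.89). Its mean was higher later, with 39.3 ± 11.2 CPM at 48 h and 61.3 ± 10.8 CPM at 72 h. Lmx1b, a LIM homeodomain gene of podocytes, held no read at 48 or 72 h, against 2.56 ± 0.483 CPM in Control.

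Genes of the developing nephron that are no members split in both directions. Of 11 tested nephron progenitor genes, 1 rose at each of the 4 times, and 1, 2 and 3 fell at 24, 48 and 72 h. The riser was Ncam1, a neural cell adhesion molecule of condensing mesenchyme, with 1.17 ± 0.28 at 6 h, 2.34 ± 0.29 at 24 h, 3.97 ± 0.30 at 48 h and 4.37 ± 0.31 at 72 h. Sall1, a progenitor zinc finger factor, fell by 0.94 ± 0.18 at 24 h and by 1.03 ± 0.18 at 48 h. Of 14 tested early nephron and Notch pathway genes, 2 rose at 6 h (Heyl and Notch3) and 5 rose at each later time, with 1, 2 and 3 falling at 24, 48 and 72 h. Wnt4, the signal that turns mesenchyme epithelial, rose by 1.42 ± 0.24 at 24 h, 2.75 ± 0.25 at 48 h and 3.65 ± 0.26 at 72 h (adjusted p = 7.2e-11). The receptor gene Notch3 had a log2 fold change of 0.94 ± 0.27 at 6 h and 2.07 ± 0.28 at 72 h. After sham surgery, at sham 24 h against sham control, Wnt4 also rose by 1.22 ± 0.20 (adjusted p = 0.00032). Ncam1 rose there by 0.97 ± 0.22 (adjusted p = 0.0046), and Sall1 was not called (0.14 ± 0.12, adjusted p = 0.46).

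Factors of mature nephron segments were called in both directions. Of 24 segment transcription factors, 10 fell and none rose at 6 h, 9 fell and 6 rose at 24 h, 12 fell and 5 rose at 48 h, and 13 fell and 5 rose at 72 h, with median log2 fold changes of -0.80, -0.50, -0.40 and -0.63. Hnf4a, a nuclear receptor of the proximal tubule, averaged 45.6 ± 13.4 CPM at 72 h, against 1044 ± 109 CPM in Control (-4.52 ± 0.33). Irx1, an Iroquois factor of the intermediate tubule, fell by 1.65 ± 0.23 at 6 h and by 3.01 ± 0.25 at 24 h. From 24 h to 48 h Irx1 rose again, from 13.1 ± 1.79 to 32.0 ± 6.07 CPM (1.29 ± 0.24, adjusted p = 0.00051). Gata3, a collecting duct factor and PAX2 target, rose by 1.53 ± 0.21 at 24 h and by 2.50 ± 0.21 at 72 h. Over the whole list of 10 tested PAX2 and PAX8 partners, 2 fell at 6 h, and 3 rose and 2 fell at 24 h, and 2 rose and 3 fell at 48 and at 72 h. At sham 24 h against sham control, Gata3 and Hnf4a were called too, with log2 fold changes of 0.84 ± 0.14 and -0.62 ± 0.09.

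Markers of tubule segments moved over the same times as the members. Summed over 12 markers of proximal segments S1 and S2, the level was 11879 to 14842 CPM in Control, 2809 to 7531 CPM at 6 h and 398 to 518 CPM at 72 h, and 12 of 12 fell at 24, 48 and 72 h. The 10 markers of the thick ascending limb summed to 5284 to 5739 CPM in Control, 1749 to 2758 CPM at 6 h, 354 to 659.9 CPM at 24 h and 813 to 889 CPM at 72 h, where Nos1 was at 0. The 13 markers of the distal convoluted and connecting tubule summed to 3057 to 3479 CPM in Control, 1734 to 2524 CPM at 6 h, 2327 to 3620 CPM at 24 h and 1802 to 2023 CPM at 72 h, where Pvalb was at 0. Those of collecting duct principal cells summed to 1098 to 1147 CPM in Control, where Avpr2 was at 0, 781 to 867 CPM at 6 h and 1182 to 2073 CPM at 24 h. Of 20 repair and injured tubule genes, among them the keratin genes Krt18 and Krt19, 17 rose at 6 h, 16 at 24 h, 14 at 48 h and 15 at 72 h. Macrophage markers summed to 208 to 220.2 CPM in Control, to 299 to 516 CPM at 6 h and to 144 to 209 CPM at 72 h, where Sox4 was highest. The part of these changes in the members' values was not tested.

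**Figure D3:**
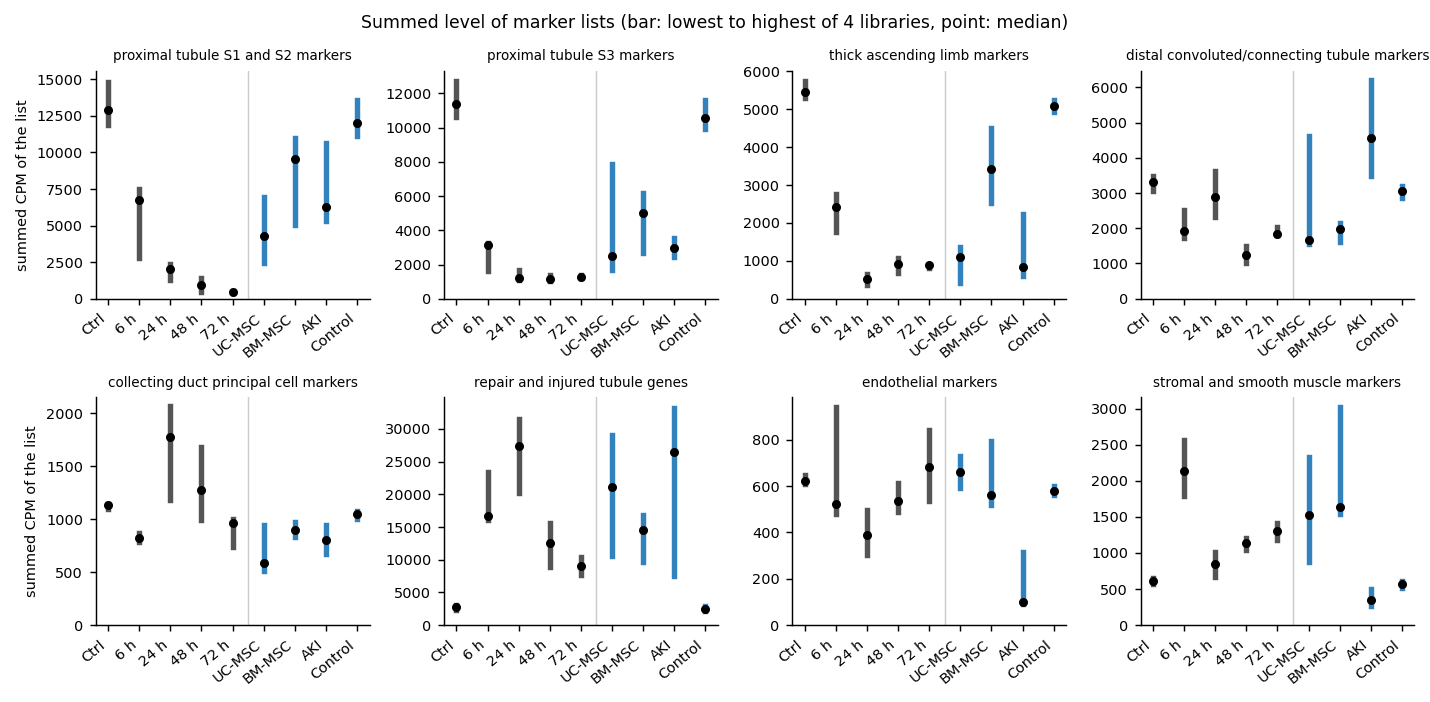
Summed CPM of 8 marker lists in the time course (grey bars) and in the therapy table (blue bars), each bar running from the lowest to the highest of 4 libraries with the median as a point. Markers of proximal segments S1 and S2 fell to between 398 and 518 at 72 h, and endothelial markers were lowest in AKI, between 89.3 and 316.

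With human MSCs, the members' pattern differed between the cell sources. Of the 8 members, UC-MSC kidneys had 7 called against Control (37.1% of 16639 genes), 3 higher and 4 lower, and BM-MSC kidneys had 3 (8.92%), 2 higher and 1 lower. AKI kidneys had 5 (35%), 2 higher and 3 lower. By direction, 20.4% of genes were higher and 16.7% lower in UC-MSC, 6.56% higher and 2.36% lower in BM-MSC, and 20% higher and 15% lower in AKI kidneys. The groups did not overlap for 7 members in UC-MSC (43.7% of all genes), 5 in BM-MSC (34%) and 4 in AKI kidneys (32.9%) against Control. These 3 comparisons share the Control libraries. Sox9 and Sox4 were higher than Control in all 3 groups. Pax8 was higher and Tfap2b lower than Control in UC-MSC kidneys, and neither was called in BM-MSC or AKI kidneys. With the 6 h libraries of the time course in place of AKI, Tfap2b passed against Control (-0.56, adjusted p = 0.010). The members' median log2 fold change against Control was -0.20 in UC-MSC, -0.13 in BM-MSC and -0.39 in AKI kidneys, beside 0.09, 0.04 and 0.06 over all genes.

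**Figure D4:**
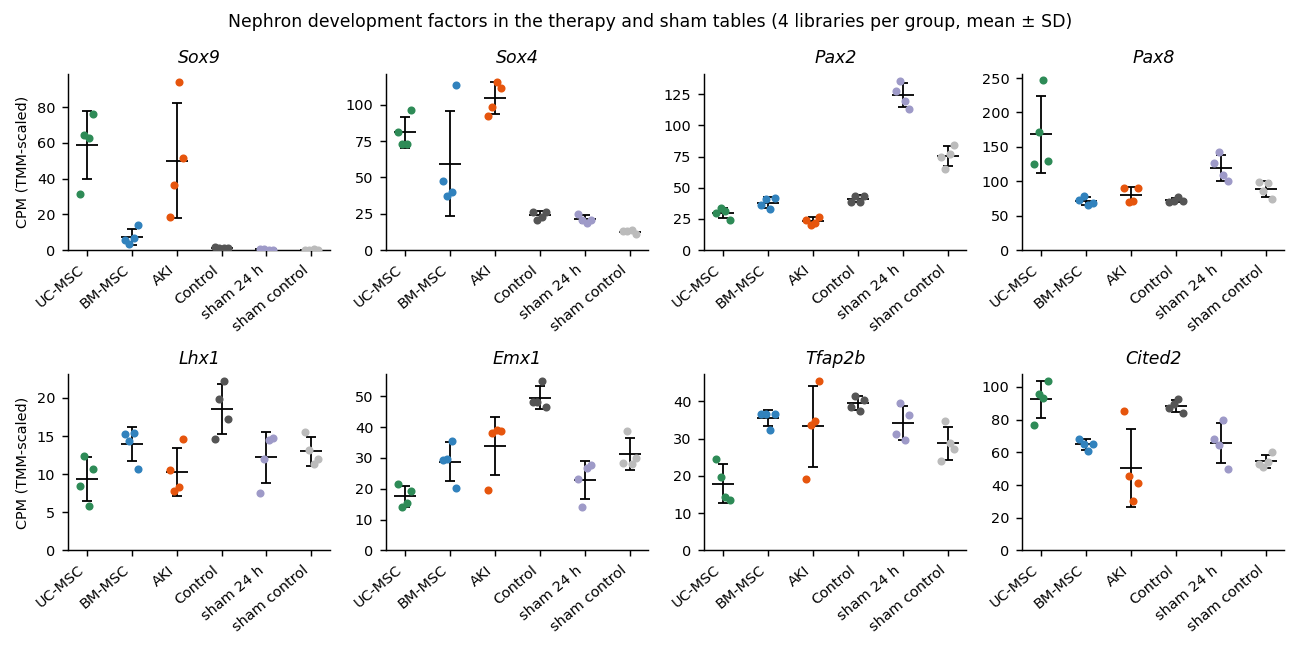
CPM (TMM-scaled) of the 8 genes in each library of the UC-MSC, BM-MSC, AKI and Control groups of the therapy table and of the sham 24 h and sham control groups. Points are libraries and the bars give mean ± SD of 4 libraries. Sox9 averaged 58.7 in UC-MSC and 7.48 in BM-MSC kidneys, and Pax8 was highest in UC-MSC kidneys with a mean of 168.

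Sox9 had 31.5, 64.4, 62.6 and 76.4 CPM in UC-MSC kidneys and 5.49, 3.66, 6.97 and 13.8 CPM in BM-MSC kidneys. It had 18.3, 36.4, 93.8 and 51.6 CPM in AKI kidneys and 1.83, 1.23, 1.38 and 1.04 CPM in Control. The BM-MSC libraries lay above all Control libraries and below all libraries of the other injured groups, which overlapped each other. Against Control, Sox9 was higher by 5.41 ± 0.54 in UC-MSC kidneys (adjusted p = 1e-05), by 2.44 ± 0.50 in BM-MSC kidneys (adjusted p = 0.0077) and by 5.18 ± 0.54 in AKI kidneys (adjusted p = 9.6e-06). Between sources, UC-MSC exceeded BM-MSC by 2.96 ± 0.47 (adjusted p = 0.0011). BM-MSC kidneys were lower than AKI kidneys by a log2 fold change of -2.73 ± 0.46 (adjusted p = 0.00043), and UC-MSC kidneys differed from AKI by 0.23 ± 0.43 (adjusted p = 0.69, or 0.94 with adjusted p = 0.046 when the 6 h libraries of the time course stood in for AKI).

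Sox4 had 81.3, 73.0, 73.4 and 96.4 CPM in UC-MSC kidneys, 47.5, 37.2, 39.9 and 114 CPM in BM-MSC kidneys, 92.4, 98.8, 116 and 112 CPM in AKI kidneys and 26.3, 20.5, 22.9 and 25.9 CPM in Control. BM-MSC library 4 stood apart from the other 3 of its group and lay among the AKI libraries. Sox4 was higher than Control by 1.76 ± 0.28 in UC-MSC kidneys (adjusted p = 0.00024), by 1.32 ± 0.28 in BM-MSC kidneys (adjusted p = 0.0086, 0.79 without BM-MSC library 4) and by 2.13 ± 0.28 in AKI kidneys (adjusted p = 6.2e-05), or 1.27 with the 6 h libraries in place of AKI. BM-MSC against AKI gave -0.81 ± 0.27 (adjusted p = 0.031), or -1.32 without BM-MSC library 4. That call was lost without AKI library 3 or 4 or BM-MSC library 1, 2 or 3 (adjusted p of 0.065 to 0.098), with only those groups in the fit (0.11) and with the 6 h libraries in place of AKI (-0.01). UC-MSC against BM-MSC was 0.44 ± 0.27 (adjusted p = 0.26), or 0.93 ± 0.15 (adjusted p = 0.001) without BM-MSC library 4.

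Pax8 had 124, 171, 247 and 130 CPM in UC-MSC kidneys and 72.1, 78.6, 66.2 and 68.8 CPM in BM-MSC kidneys. It had 89.9, 69.6, 70.9 and 89.7 CPM in AKI kidneys and 69.5, 71.4, 77.3 and 71.8 CPM in Control. Every UC-MSC library lay above every other library, and the other groups overlapped. Pax8 was higher in UC-MSC kidneys by 1.21 ± 0.18 against Control (adjusted p = 0.00017), by 1.07 ± 0.18 against AKI (adjusted p = 0.00035) and by 1.24 ± 0.18 against BM-MSC kidneys (adjusted p = 0.00079).

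Pax2 had 29.9, 33.8, 31.2 and 23.8 CPM in UC-MSC kidneys, 36.5, 41.3, 32.7 and 41.8 CPM in BM-MSC kidneys, 24.4, 20.4, 21.9 and 26.8 CPM in AKI kidneys and 38.6, 43.4, 38.7 and 43.6 CPM in Control. The AKI and UC-MSC libraries lay below Control, and the BM-MSC libraries overlapped Control. Against Control, Pax2 was lower by -0.47 ± 0.14 in UC-MSC kidneys (adjusted p = 0.016) and by -0.81 ± 0.14 in AKI kidneys (adjusted p = 0.00049). BM-MSC exceeded AKI by 0.70 ± 0.14 (adjusted p = 0.0015). With the 6 h libraries in place of AKI both AKI calls were lost, at -0.21 against Control (adjusted p = 0.16) and 0.06 for BM-MSC (adjusted p = 0.79). UC-MSC against AKI was 0.35 ± 0.14 (adjusted p = 0.059). It passed with DESeq2 (0.045), with the names left out kept (0.046) and without AKI library 1 or 4 or UC-MSC library 4 (0.048, 0.040 and 0.017).

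Tfap2b had 24.5, 19.7, 14.3 and 13.4 CPM in UC-MSC kidneys and 36.8, 36.8, 32.4 and 36.6 CPM in BM-MSC kidneys. It had 19.1, 33.8, 34.8 and 45.6 CPM in AKI kidneys and 38.6, 41.5, 37.4 and 40.5 CPM in Control. The UC-MSC libraries lay below those of BM-MSC and Control and overlapped the lowest AKI library. In UC-MSC kidneys Tfap2b was lower by -1.13 ± 0.23 against Control (adjusted p = 0.0013), by -0.98 ± 0.22 against BM-MSC kidneys (adjusted p = 0.0071) and by -0.89 ± 0.22 against AKI (adjusted p = 0.0054, or 0.056 with only those groups in the fit).

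Emx1 had 21.5, 14.0, 15.4 and 19.4 CPM in UC-MSC kidneys, 29.4, 29.8, 35.5 and 20.3 CPM in BM-MSC kidneys, 19.7, 38.0, 39.1 and 38.7 CPM in AKI kidneys and 48.1, 48.3, 55.0 and 46.6 CPM in Control. All libraries of the injured groups lay below Control, and AKI library 1 stood apart from the other 3 of its group. Emx1 was lower in UC-MSC kidneys by -1.49 ± 0.22 against Control (adjusted p = 0.00014) and by -0.95 ± 0.22 against AKI (adjusted p = 0.0031). The values of -0.79 ± 0.22 for BM-MSC against Control (adjusted p = 0.034) and of -0.71 ± 0.22 for UC-MSC against BM-MSC (adjusted p = 0.032) were less stable. The BM-MSC call against Control was lost without any 1 library of these groups other than BM-MSC library 3 (adjusted p of 0.054 to 0.12), and the UC-MSC call against BM-MSC without BM-MSC library 1, 2 or 3 or UC-MSC library 2 or 3 (0.069 to 0.099). AKI against Control was -0.55 ± 0.22 (adjusted p = 0.060), and it passed with DESeq2 (0.041), with DESeq2's size factors (0.047), with the names left out kept (0.048) and with the 6 h libraries in place of AKI (0.012).

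Lhx1 had 8.47, 12.4, 5.82 and 10.6 CPM in UC-MSC kidneys, 15.3, 14.4, 15.5 and 10.7 CPM in BM-MSC kidneys, 10.5, 7.73, 8.30 and 14.7 CPM in AKI kidneys and 14.6, 19.9, 22.3 and 17.3 CPM in Control. UC-MSC libraries lay below Control, and the BM-MSC and AKI libraries each overlapped it. Lhx1 was lower than Control by -0.99 ± 0.25 in UC-MSC kidneys (adjusted p = 0.0066) and by -0.84 ± 0.25 in AKI kidneys (adjusted p = 0.016). The AKI call was lost without Control library 3 or AKI library 2 (adjusted p = 0.054 and 0.053), and BM-MSC against Control was -0.41 ± 0.25 (adjusted p = 0.34).

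Cited2 had 77.0, 95.7, 93.0 and 104 CPM in UC-MSC kidneys, 68.3, 65.3, 60.7 and 65.2 CPM in BM-MSC kidneys, 85.3, 45.6, 30.4 and 41.0 CPM in AKI kidneys and 87.3, 89.6, 92.7 and 84.1 CPM in Control. UC-MSC libraries overlapped Control, the BM-MSC libraries lay below both, and 3 of 4 AKI libraries lay below all BM-MSC libraries. Cited2 was lower in AKI kidneys than in Control by -0.81 ± 0.22 (adjusted p = 0.011, or 0.053 with only those groups in the fit), and UC-MSC exceeded AKI by 0.87 ± 0.22 (adjusted p = 0.0061, or 0.060 with only those groups). UC-MSC against Control was 0.06 ± 0.22 (adjusted p = 0.85). BM-MSC against Control was -0.45 ± 0.22 (adjusted p = 0.23), and it passed with only those groups in the fit (-0.47 ± 0.08, adjusted p = 0.0018). BM-MSC against AKI was 0.36 ± 0.22 (adjusted p = 0.23), or 0.74 ± 0.13 (adjusted p = 0.00033) without AKI library 1.

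Against AKI, 4 of 8 members were called in UC-MSC kidneys (40.4% of all genes), with Pax8 and Cited2 higher and Emx1 and Tfap2b lower, and 3 in BM-MSC kidneys (33.3%), with Pax2 higher and Sox9 and Sox4 lower. UC-MSC against BM-MSC gave 4 (20.5%), with Sox9 and Pax8 higher and Emx1 and Tfap2b lower. By direction, 20.3% of genes were higher and 20.1% lower in UC-MSC than in AKI kidneys, 16.3% higher and 17.1% lower in BM-MSC than in AKI kidneys, and 10% higher and 10.4% lower in UC-MSC than in BM-MSC kidneys. The groups did not overlap for 1 member in UC-MSC against AKI (25.7% of all genes), 2 in BM-MSC against AKI (26.8%) and 4 in UC-MSC against BM-MSC (25.8%). AKI and the 6 h libraries of the time course carry the same library names and time in the labels. Yet of names with at least 10 counts in either library, only 0.507% to 0.62% had equal counts in both. Set side by side, Pax2 averaged 23.4 ± 2.80 CPM in AKI and 36.6 ± 2.51 CPM at 6 h (SD, n = 4 each), and Sox4 105 ± 11.1 CPM in AKI and 59.8 ± 9.58 CPM at 6 h, each scaled within its own table.

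Marker levels differed between the groups as well. Endothelial markers summed to 593 to 729.9 CPM in UC-MSC, 519.7 to 797 CPM in BM-MSC, 89.3 to 316 CPM in AKI and 559.7 to 601 CPM in Control libraries. Fibroblast, mesangial and smooth muscle markers summed to 874 to 2331 CPM in UC-MSC, 1537 to 3019 CPM in BM-MSC, 261 to 502 CPM in AKI and 515 to 605 CPM in Control libraries. Thick ascending limb markers summed to 410.3 to 1359 CPM in UC-MSC, 2522 to 4511 CPM in BM-MSC, 586 to 2243 CPM in AKI and 4924 to 5246 CPM in Control libraries. The part of these differences in the members' values was not tested. Among 20 repair and injured tubule genes, 5 were higher and 2 lower in UC-MSC than in BM-MSC kidneys, and Krt20, a keratin gene of injured epithelium, averaged 899.6 ± 272 CPM in UC-MSC and 55.5 ± 37.5 CPM in BM-MSC kidneys (4.02 ± 0.50). Of 18 hypoxia-inducible genes tested, 8 were higher and none lower in UC-MSC than in BM-MSC kidneys, among them Adm, the adrenomedullin gene (2.25 ± 0.27), and Ddit4, an inhibitor of mTORC1 signalling (2.12 ± 0.31). Cited2, itself known as a hypoxia-inducible gene, did not pass there (0.51 ± 0.22, adjusted p = 0.11), although all 4 UC-MSC libraries lay above the BM-MSC libraries, and it passed with only those groups in the fit (0.51 ± 0.13, adjusted p = 0.027). Cited1, a relative of Cited2 that marks nephron progenitors, averaged 2.09 ± 0.803 CPM in UC-MSC and 0.259 ± 0.139 CPM in BM-MSC kidneys (2.96 ± 0.56). Its BM-MSC level was near the detection limit, so the size of this difference is uncertain.

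Sham surgery without IRI also moved some members. Of 7 members tested, 3 were called at sham 24 h against sham control (20.8% of 17781 genes), and all 3 rose, beside 7.7% of genes that rose and 13.1% that fell. The groups did not overlap for 4 members (24% of genes). Sox4 had 25.1, 21.0, 18.8 and 20.4 CPM at sham 24 h, against 12.9, 13.0, 14.0 and 10.9 CPM in sham control, and rose by 0.74 ± 0.15 (adjusted p = 0.0017). Pax2 had 128, 135, 119 and 113 CPM at sham 24 h, against 75.0, 65.0, 76.8 and 84.2 CPM in sham control, and rose by 0.72 ± 0.11 (adjusted p = 0.00012). Neither gene's groups overlapped. Pax8 had 127, 142, 109 and 99.8 CPM at sham 24 h, against 99.2, 85.5, 97.9 and 74.0 CPM in sham control, and rose by 0.42 ± 0.13 (adjusted p = 0.026). The Pax8 call was lost without sham control column 2 or 4 or sham 24 h library 1 or 2 (adjusted p of 0.067 to 0.10). Sox9 was near the detection limit, with 17, 12, 0 and 7 counts at sham 24 h and 0, 4, 12 and 4 counts in sham control, and was not tested there because it did not pass the filter on low counts. The libraries at 0 allow up to 0.0883 CPM at sham 24 h and 0.0961 CPM in sham control.

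The other 4 members did not pass in the sham table. Lhx1 had 7.54 to 14.8 CPM at sham 24 h, against 11.3 to 15.6 CPM in sham control (-0.09 ± 0.21, adjusted p = 0.82). Emx1 had 23.1, 14.2, 26.8 and 27.8 CPM at sham 24 h, all below the 28.4, 38.8, 28.0 and 30.1 CPM of sham control (-0.45 ± 0.18, adjusted p = 0.097, or 0.0091 with no filter on low counts). Tfap2b was 0.25 ± 0.13 (adjusted p = 0.22) and Cited2 0.27 ± 0.13 (adjusted p = 0.17), and Cited2 passed without sham 24 h library 4 (adjusted p = 0.032). Of 24 segment transcription factors, 11 rose and 3 fell after sham surgery. Some markers of proximal segments S1 and S2 fell there too, among them Slc22a6 (-1.90 ± 0.16), Slc22a8 (-1.55 ± 0.13) and Slc4a4 (-1.28 ± 0.13). Of markers of proximal segment S3, Cyp7b1 fell (-2.64 ± 0.23) and Slc7a12 rose (adjusted p = 8.9e-06). In the thick ascending limb, Umod fell (-1.03 ± 0.12) and Slc12a1 did not pass (0.27 ± 0.14, adjusted p = 0.21). Of 9 collecting duct principal cell markers, 5 rose, with a summed level of 1346 to 2125 CPM at sham 24 h and 892 to 1395 CPM in sham control. The part of that difference in the Pax2 and Pax8 values was not tested.

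The change at IRI 24 h was then set against the change at sham 24 h, each relative to its own controls, in a joint fit of both tables. Here 4 of 8 members were called (24.4% of 19596 genes), 2 higher (13.4%) and 2 lower (10.9%) on the IRI side. Sox9 gained 3.88 ± 0.80 more after IRI than after sham surgery (adjusted p = 0.00039), and Sox4 1.85 ± 0.26 more (adjusted p = 1.7e-06). The sham side of the Sox9 value rests on at most 17 counts a library. Sox9 did not pass the filter on low counts in the sham table and entered the joint fit through its time course libraries. Cited2 differed by -1.37 ± 0.33 (adjusted p = 0.0019) and Lhx1 by -2.21 ± 0.76 (adjusted p = 0.032), lower on the IRI side in both. The Lhx1 call was lost when 1 of 11 of the 16 libraries was left out, with adjusted p of 0.052 to 0.072. Pax2 (-0.50 ± 0.21, adjusted p = 0.080), Pax8 (0.27 ± 0.19, adjusted p = 0.36), Emx1 (-0.90 ± 0.65, adjusted p = 0.36) and Tfap2b (-0.40 ± 0.38, adjusted p = 0.51) did not pass, and Pax2 passed with DESeq2 (-0.53, adjusted p = 0.030) and without IRI 24 h library 2 (-0.61, adjusted p = 0.038). The tables differ in controls and in depth, and a difference between tables cannot be told apart from one between the surgeries.

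The genes whose profile was most like that of each member were taken from 10161 names by Pearson's r of log2 CPM over the 20 libraries of the time course, as a description. These libraries share groups, scaling and falling depth, so r also holds differences between groups and in depth. Sox9 was most like Anxa2 (r = 0.974), Akr1b8 (0.974) and Capg (0.967), which encode an annexin, an aldo-keto reductase and an actin capping protein. Sox4 was most like Stap2 (0.992), Mapk13 (0.990) and Cep85 (0.988), and Pax8 most like Blcap (0.939), Jund (0.931) and Tmem11 (0.926). For Lhx1 these were Ppp1r21 (0.961), Enpp4 (0.959) and Alg1 (0.947), and for Emx1 Ceacam1 (0.947), Tmem41b (0.938) and Eefsec (0.927). Cited2 reached 0.879 with Mras, Pax2 0.840 with Cav1 and Tfap2b 0.752 with Bicd1. None of the closest 3 names of any member was another member, though a member below that mean level could not have appeared.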

How the data were processed

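Whole kidney RNA libraries were deposited as 3 tables of read counts per gene (time course, therapy and sham) with 44 library columns of 40 samples, 4 per group. The deposited counts were made by the authors with HTSeq on GRCm39 (mm39), and DESeq2 is also named, per the submitters' processing notes. The aligner and the use of strand are not given in the sources used here. In the time course and therapy tables, names repeated over several lines held products of a join, which were undone. The 81 names whose Control counts differed there, or that stood in 1 of them only, were left out.

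For each table, 1 edgeR 4.0.16 model (R 4.3.3) held all groups, after edgeR's filter on low counts and TMM scaling, and gave quasi-likelihood tests with Benjamini-Hochberg adjustment over all genes. IRI and sham at 24 h were set against each other in a joint fit. The steps were tested on simulated data. The 3-count limit for a library at 0 covers counting error only. Each SE was derived from the log2 fold change and the F value of its test, and so also holds the spread among libraries. DESeq2 1.42.0, its size factors, no filter, only the groups compared, a replicate block, kept names, names over 1% of counts left out, IRI 6 h in place of AKI and each library left out were tried. Named genes are the 8 members, per list and comparison up to 3 called genes with the largest change and up to 2 others with the highest level, and 3 names per member by profile. The lists' counts describe them, with no test of a list. The members and the 23 lists were chosen with earlier results of these data known. Promoters came from RefSeq on GRCm38.p6. Results for 1 gene of these lists are not reported here.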

Additional observations from a re-analysis of the deposited data

Results flagged for a closer look

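Within groups of 4 libraries, 5 values stood apart from the other 3 of their group by a gap above Dixon's 95% critical value. With 80 groups tested, chance flags about 1 in 20. Sox4 had 114 CPM in BM-MSC library 4, against 37.2 to 47.5 CPM in the others. Pax8 had 88.6 CPM in the IRI 72 h library 3, against 74.9 to 77.0 CPM. Emx1 had 19.6 CPM in the IRI 72 h library 1, against 0 to 2.34 CPM, and 19.7 CPM in AKI library 1, against 38.0 to 39.1 CPM. Tfap2b had 32.4 CPM in BM-MSC library 3, against 36.6 to 36.8 CPM.

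The change at IRI 24 h differed from that at sham 24 h, each against its own controls, for 4 members by edgeR's test of the difference. These were Sox9 (log2 difference 3.88), Sox4 (1.85), Cited2 (-1.37) and Lhx1 (-2.21). Sox9 held at most 17 counts in a sham 24 h library and did not pass the filter on low counts in the sham table.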

How the results depend on the processing

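Of 119 member results, 79 kept their call under every alternative run, and none of 867 alternative values of the 56 called results had the other sign. With only the groups compared in the fit, 6 members were called at 6 h against Control (main 3), 6 in 24 h against 6 h (main 3) and 2 in UC-MSC against AKI (main 4). Over all genes, that fit called 7448 at 6 h (main 3139), 8285 in 24 h against 6 h (main 4802) and 3534 in UC-MSC against AKI (main 6725). In 48 h against 24 h, Sox9 and Emx1 also passed with only the groups compared. With no filter on low counts, the calls of Pax2 and Pax8 in 24 h against 6 h were lost, and Emx1 passed in 48 h against 24 h. DESeq2 called 1 member in 72 h against 48 h (main 0), and IRI 6 h in place of AKI left 1 in BM-MSC against AKI (main 3). Over all genes these gave 2001 (main 942) and 423 (main 5547). DESeq2 gave no adjusted p for Emx1 in the time course. Leaving out 1 library gave 2 to 3 members at 6 h, 5 to 5 at 24 h, 6 to 6 at 48 h and 4 to 5 at 72 h against Control, 1 to 3 in 24 h against 6 h, 1 to 2 in 48 h against 24 h and 0 to 2 in 72 h against 48 h. Over all genes these ranges were 2291 to 2908, 6054 to 6265, 8089 to 9173 and 8619 to 9823 against Control. For the 3 steps in time they were 3765 to 4835, 2603 to 3756 and 847 to 1349. Leaving out 1 library also gave 7 to 7 members in UC-MSC, 2 to 3 in BM-MSC and 4 to 5 in AKI against Control, 4 to 5 in UC-MSC and 2 to 4 in BM-MSC against AKI, 3 to 5 in UC-MSC against BM-MSC, 2 to 4 in sham 24 h and 3 to 4 in IRI against sham. In the same order, the ranges over all genes were 4810 to 6314, 582 to 1483 and 4507 to 8167 against Control, and 5583 to 9027 and 4439 to 8107 against AKI. They were 1947 to 4214 in UC-MSC against BM-MSC, 2748 to 3551 in sham 24 h and 4148 to 4513 in IRI against sham. The cause of these changes was not tested.

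Same-numbered libraries did not deviate together (52 pairs, correlations of -0.4945 to 0.2228, 12 best with their own number). No pairing by replicate number was thus seen, which does not exclude one. With the number as a block, the call of Pax2 was lost in 24 h against 6 h. That of Emx1 was lost in BM-MSC against Control and in UC-MSC against BM-MSC. Every other member call in the time course and therapy tables stayed as in the main fit. The block was not run for the sham table or for IRI against sham, because the sham control columns carry no number tied to a sample. Counts of all genes called moved by over 1.5 times with only the groups compared: 7448 against 3139 at 6 h, 11572 against 6990 at 24 h, 8285 against 4802 in 24 h against 6 h, 24 against 942 in 72 h against 48 h, 4965 against 1485 in BM-MSC against Control, 3638 against 5547 in BM-MSC against AKI and 3534 against 6725 in UC-MSC against AKI. In 72 h against 48 h the block gave 500 and DESeq2 2001, and DESeq2 gave 2302 in BM-MSC against Control. IRI 6 h in place of AKI gave 423 in BM-MSC and 3809 in UC-MSC against AKI. With DESeq2's size factors, the median of all genes was 0.11 at 48 h and 0.09 at 72 h, against 0.01 and -0.05. Depth limits the low genes at 72 h, where totals were lowest.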
